A study of Mus musculus with 6 samples.

Results

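Unmethylated CpG-dense tiles were defined as 1 kb windows of the autosomes with at least 40 CpG positions read 10 or more times in every library and a mean methylation level under 5% in the Tet2 WT libraries. These windows are called member tiles here. They numbered 7415, which was 90.7% of the 8175 autosomal windows with 40 or more such positions and 4.25% of the 174441 autosomal windows with any. A tile's level was the sum of its methylated reads divided by the sum of its coverage. The Tet2 WT levels chose the members, so those levels, and the differences from them inside members, are given as descriptions.

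The study read CpG methylation in germinal centre B cells from the spleens of C57BL/6 mice by enhanced reduced representation bisulfite sequencing (ERRBS). ERRBS cuts genomic DNA with MspI, which recognises CCGG, and sequences the fragments after bisulfite treatment, so CpG-rich sequence is read most deeply. There were 3 libraries of Tet2 wild-type cells (Tet2 WT) and 3 of Tet2 knock-out cells (Tet2 KO), with no treatment in either group, and the genotype labels name no other allele. The labels do not say how the knock-out was made, which cells carry it, how the germinal centre was induced or how old the mice were. They also do not say whether replicates came from separate animals, so a p-value speaks only of the variation from library to library, part of which may be technical. Each file listed 1578479 to 1733270 CpG positions at a mean coverage of 101 to 125 reads, and 1463044 positions were listed in all 6. Inside the Tet2 gene, 6 positions (GRCm38, chr3:133486189-133486297) were covered by 32 to 168 reads in each Tet2 WT library and were listed in no Tet2 KO library, whereas 0 positions of the gene body showed the opposite. As a check of the cell label, covered positions within 1 kb of the start of Ebf1, a B-lineage transcription factor, were at 1.29% to 2.71% methylation, and those of Zap70, a T-cell kinase, at 82.9% to 91.3%. Positions within 1 kb of either end of Cd79b, a subunit of the B-cell receptor, lay at 0% to 0.674% and those of the myeloid receptor gene Csf1r at 75.3% to 89.8%, although Cd4 (0.202% to 0.975%) and Cd14 (0% to 0.714%), marker genes of other cells, were also near 0. The T-cell genes Cd3e and Lck and the myeloid genes Itgam and Lyz2 had no covered position there.

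In mammalian genomes most CpGs are methylated by DNA methyltransferases, and CpG islands, the CpG-rich stretches at many gene starts, are the main exception. Islands are kept free of methylation by transcription factors, histone marks and proteins with a CXXC domain that bind unmethylated CpG. TET2 belongs to a family of enzymes that oxidise 5-methylcytosine to 5-hydroxymethylcytosine and further, which leads to loss of the mark. Bisulfite sequencing reads 5-methylcytosine and 5-hydroxymethylcytosine alike, so a level here is the sum of both.

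The sequence of 5 starts shows what such a tile looks like. Each is the 250 bases before a RefSeq gene start (GRCm38.p6), written 5′ to 3′ in the direction of the gene, with every CpG in capitals. Kmt2d, a histone H3K4 methyltransferase often mutated in lymphoma, stands for chromatin genes (chr15:98871206-98871455, minus strand, 26 CpGs). Psma7 encodes a proteasome subunit (chr2:180042465-180042714, minus strand, 35 CpGs). Bcl6 encodes the master repressor of the germinal centre (chr16:23988853-23989102, minus strand, 21 CpGs). Nkx6-1, a developmental homeobox gene, stands for members with measurable methylation (chr5:101664712-101664961, minus strand, 30 CpGs). Mael, a germline gene of the piRNA pathway, is shown because its start lies in a CpG-dense tile that was methylated and so no member (chr1:166238745-166238994, minus strand, 18 CpGs).
Kmt2d: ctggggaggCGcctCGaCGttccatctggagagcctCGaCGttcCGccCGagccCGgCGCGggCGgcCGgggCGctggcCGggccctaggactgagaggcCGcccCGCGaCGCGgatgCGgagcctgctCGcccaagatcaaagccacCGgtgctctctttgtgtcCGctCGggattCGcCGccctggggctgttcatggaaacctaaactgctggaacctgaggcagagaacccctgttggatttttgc
Psma7: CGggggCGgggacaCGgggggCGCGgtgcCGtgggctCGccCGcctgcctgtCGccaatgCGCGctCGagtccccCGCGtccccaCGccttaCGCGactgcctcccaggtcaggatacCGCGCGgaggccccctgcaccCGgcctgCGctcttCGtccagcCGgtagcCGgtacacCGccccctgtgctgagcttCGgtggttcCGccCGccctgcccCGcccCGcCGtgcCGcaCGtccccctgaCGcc
Bcl6: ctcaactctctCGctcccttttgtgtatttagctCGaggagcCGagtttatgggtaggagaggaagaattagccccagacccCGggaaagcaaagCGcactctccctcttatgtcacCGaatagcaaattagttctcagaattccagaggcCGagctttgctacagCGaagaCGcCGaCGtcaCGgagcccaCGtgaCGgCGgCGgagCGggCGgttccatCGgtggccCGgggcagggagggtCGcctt
Nkx6-1: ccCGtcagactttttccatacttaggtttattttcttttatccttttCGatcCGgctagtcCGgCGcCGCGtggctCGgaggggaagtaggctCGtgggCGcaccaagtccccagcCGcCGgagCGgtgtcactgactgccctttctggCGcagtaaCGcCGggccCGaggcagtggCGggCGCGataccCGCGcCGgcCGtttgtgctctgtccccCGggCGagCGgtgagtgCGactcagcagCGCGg
Mael: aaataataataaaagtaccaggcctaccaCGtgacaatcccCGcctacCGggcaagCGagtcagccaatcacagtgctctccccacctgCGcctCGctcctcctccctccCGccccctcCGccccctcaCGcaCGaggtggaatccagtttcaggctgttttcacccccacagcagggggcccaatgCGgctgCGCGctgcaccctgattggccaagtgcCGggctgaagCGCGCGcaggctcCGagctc

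A CpG can be read on both strands, so the 26 CpGs of the Kmt2d stretch gave 34 covered positions, of which 31 to 32 were at 0 in each library. The level over the covered positions of that stretch was 0.0724%, 0.462% and 0.167% in Tet2 WT and 0.0341%, 0.317% and 0.173% in Tet2 KO. The Bcl6 stretch was at 0% to 0.152% in Tet2 WT and 0% to 0.435% in Tet2 KO. The Nkx6-1 stretch stood higher, at 1.86%, 1.45% and 0.800% in Tet2 WT and 2.78%, 2.17% and 1.76% in Tet2 KO, although it holds more CpGs than the Bcl6 one. The Mael stretch was at 82.2% to 93.4% in all libraries, and none of its 18 covered positions was at 0. Tiles dense in CpG were thus not all members: of the 760 other dense tiles, 449 had a Tet2 WT mean of 5% to 10%, 209 of 10% to 50% and 102 of 50% or more.

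Most member tiles were almost free of methylation. The mean over members was 0.725%, 0.771% and 0.709% in the Tet2 WT libraries and 0.813%, 0.872% and 0.799% in the Tet2 KO libraries, and the median was far lower, at 0.183% to 0.240% and 0.190% to 0.339%. The mean was drawn up by a minority: 5677 members (76.6%) had a Tet2 WT mean under 1%. Methylated calls on mitochondrial DNA, which carries little or no CpG methylation, were taken over 19 positions as a reference for unconverted or miscalled cytosines and gave 0.263%, 0.416% and 0.244% in Tet2 WT and 0.254%, 0.410% and 0.262% in Tet2 KO. Replicate 2 was the highest in both groups, and the groups overlapped (exact two-sided permutation test, p = 1, where 3 libraries against 3 cannot go below 0.1). In each library 54.1% to 63.1% of members lay at or below its own mitochondrial level. Over all libraries, 2515 members (33.9%) lay at or below it in every one, 2220 (29.9%) lay above it in every one, and 2680 were mixed, so the mitochondrial level was no lower limit for nuclear tiles. The median member was covered by 7664 to 9753 reads summed over its positions per library. With that depth a count of 0 allows a level of up to 0.0308% to 0.0391%, for counting error only, and reads without molecular identifiers are not independent molecules. A read over several CpGs also counts once at each, so these counts are not independent of each other.

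**Figure D1:**
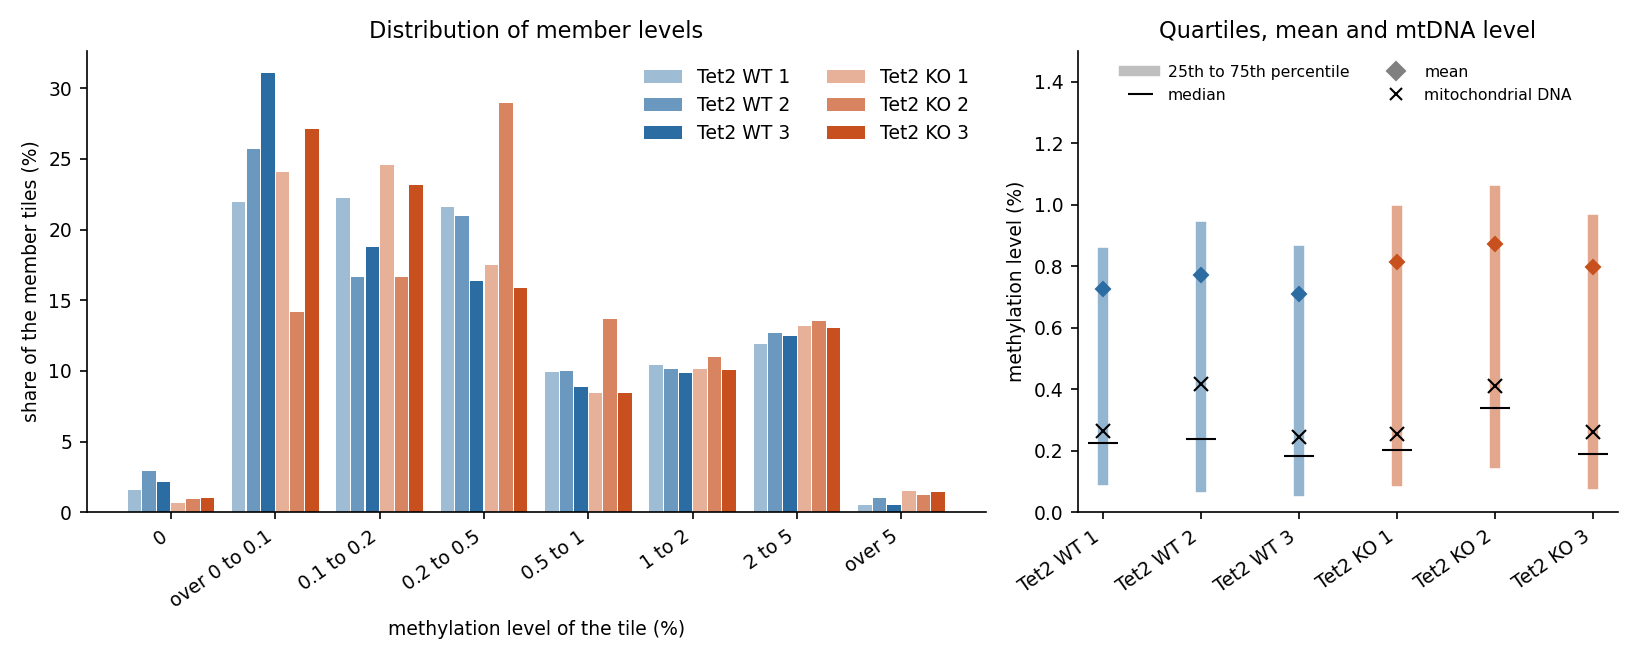
Left, share of the 7415 member tiles (y axis, %) by methylation level (x axis, %) in each library, Tet2 WT in blue and Tet2 KO in orange; right, the 25th to 75th percentile (bar), median (line), mean (diamond) and mitochondrial level (cross) of each library. The means lie at 0.709% to 0.872%, above the medians and the mitochondrial levels in all 6 libraries, and replicate 2 has the highest mitochondrial level in both groups.

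Single positions showed the same emptiness. Of the 514025 positions in members, 53.6% were at 0 in all 6 libraries. Per library, 86.2%, 88.7% and 85.7% of positions were at 0 in Tet2 WT and 79.1%, 84.5% and 81.0% in Tet2 KO. The Tet2 KO libraries thus had fewer positions without a methylated read, and the groups did not overlap. Tet2 WT levels chose the members, so this is a description. Mean coverage of member positions was 122 to 154 reads in Tet2 WT and 125 to 141 in Tet2 KO. The share of positions over 5% was 4.75%, 4.74% and 4.47% in Tet2 WT and 4.59%, 5.59% and 4.51% in Tet2 KO, with overlap. The share of positions over 20% was 0.425%, 0.746% and 0.453% in Tet2 WT and 0.386%, 0.701% and 0.398% in Tet2 KO, with overlap. Against this background, 552 positions in 312 members were over 20% in every library. The highest single positions in Tet2 WT lay in Ptprf, a receptor tyrosine phosphatase, Rpl5, a ribosomal protein, and Pgbd5, a transposase-derived gene. In Rpl5 1 position (chr5:107900019, 14 to 33 reads) was at 100% in all 6 libraries, although the levels of its tile were only 0.406% to 1.06% and 75 to 82 of its 86 positions were at 0.

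Members were spread over all 19 autosomes, with 222 to 648 on each, and held 40 to 229 positions (median 62). The 5 with the most positions were at Tshz1 (229), Zfp777 (206), Clock (203), Tmem131 (201) and Epb41l4b (200). Clock encodes a circadian transcription factor, and its tile was at 0.0481%, 0.0195% and 0.128% in Tet2 WT and 0.164%, 0.481% and 0.229% in Tet2 KO, without overlap but not past the test (adjusted p = 0.172, quasi-binomial fit with limma moderation). Members formed 6318 runs of adjacent tiles, of which 5290 were single tiles and 7 were 4 tiles long. The longest runs by positions covered Arid2, a subunit of a SWI/SNF chromatin remodeller (chr15:96285001-96289000, 436 positions), Zswim6 (chr13:107888001-107892000, 413 positions) and Phf21b (chr15:84853001-84857000, 327 positions). The 4 tiles of the Arid2 run had Tet2 WT means of 0.0410% to 0.224%, and those of the Phf21b run of 0.0569% to 1.02%.

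Gene starts were the main place of member tiles. A start of a protein-coding gene lay in 4044 members (54.5%) and within 1 kb of another 1292. For 1238 members only a gene end without a known strand was within 1 kb, 624 lay inside a gene and 217 outside genes. Of the 16457 autosomal genes with a start in the promoter table, 4256 (25.9%) started in a member, and of the genes that started in any dense tile 95.3% did. Levels were lowest at starts: members that held a start averaged 0.573% ± 0.0277 in Tet2 WT and 0.642% ± 0.0448 in Tet2 KO (SD, n = 3), while members inside genes averaged 1.36% ± 0.0417 and 1.55% ± 0.0207. The share of members above the mitochondrial level in all libraries was 23.1% at starts, 58.0% inside genes and 49.8% outside genes.

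Gene lists differed in the level of their members. All 14 dense tiles at replication licensing genes, such as Orc2 of the origin recognition complex and Mcm4 of the replicative helicase, were members, with a median Tet2 WT level of 0.148%. The same held for 12 of 12 at proteasome genes (0.149%), 15 of 15 at genes of the germinal centre programme (0.170%), 39 of 39 at chromatin and lymphoma genes (0.101%) and 7 of 7 at plasma-cell genes (0.334%). The median over all members was 0.207%. Orc2 lay at 0.127%, 0.152% and 0.166% in Tet2 WT and 0.426%, 0.197% and 0.213% in Tet2 KO, and the proteasome subunit gene Psmd6 at 0.224% to 0.255% and 0.222% to 0.607%.

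Within the germinal centre programme, the Bcl6 tile was at 0.0163%, 0.0858% and 0.0291% in Tet2 WT and 0.125%, 0.399% and 0.0717% in Tet2 KO, which overlapped. Foxo1, a transcription factor of the dark zone, was at 0.0200%, 0.0526% and 0.0777% in Tet2 WT and 0.0937%, 0.175% and 0.227% in Tet2 KO. Pou2f1, which encodes the octamer-binding factor OCT1, had its values the other way round, at 0.195%, 0.0893% and 0.226% in Tet2 WT and 0.0127%, 0.0133% and 0.0651% in Tet2 KO. Neither Foxo1 nor Pou2f1 overlapped between groups, and neither passed the test (adjusted p = 0.471 and 0.358, quasi-binomial fit with limma moderation), and all of these values lay below the mitochondrial level of their library. Among plasma-cell genes, Sdc1, which encodes the surface marker CD138, was at 0.308% to 0.478% in Tet2 WT and 0.479% to 0.869% in Tet2 KO in the tile that holds its start (adjusted p = 0.488).

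Of the methylation machinery, 19 of 21 dense tiles were members, with a median of 0.167% in Tet2 WT. The tile at the start of Tet2 itself was at 0%, 0.237% and 0.194% in Tet2 WT and 0.0737%, 0.403% and 0.0429% in Tet2 KO. The maintenance methyltransferase gene Dnmt1 was at 0.182%, 0.0249% and 0.0762% in Tet2 WT and 0.111%, 0.389% and 0.0234% in Tet2 KO. The tile of Dnmt3a, a de novo methyltransferase, with the most positions (184) was at 0.136% to 0.218% and 0.126% to 0.385%. Of the 17 genes of this list with a dense tile, Tet3 alone had no member, with its start tile at 3.81%, 5.63% and 5.92% in Tet2 WT and 5.67%, 7.36% and 6.52% in Tet2 KO (overlapping, adjusted p = 0.520).

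Members at genes of other lineages carried more in the median. Developmental regulators known as Polycomb targets in many cell types, such as homeobox and T-box genes, had 121 dense tiles, of which 90 (74.4%) were members, against 90.7% of all dense tiles. Their members had medians of 2.09%, 2.23% and 2.08% in Tet2 WT and 2.24%, 2.41% and 2.29% in Tet2 KO, and 88 of the 90 were above the mitochondrial level in all libraries. Six2, a homeobox gene of kidney progenitors, was at 1.26%, 2.87% and 1.15% in Tet2 WT and 2.38%, 2.82% and 1.90% in Tet2 KO. Hoxd8 was at 0.917% to 1.31% and 1.07% to 1.79%, whereas Hoxd11, from the same gene cluster, at 5.40% to 6.41% in Tet2 WT, was no member. Only 5 of 20 myeloid genes and 4 of 23 T-cell genes had a dense tile. Myeloid genes had 9 of 9 dense tiles as members (median Tet2 WT level 1.07%), with Cebpa, a myeloid transcription factor, at 0.836% to 1.23% in Tet2 WT and 0.774% to 1.35% in Tet2 KO. Cebpd, of the same list, was lower, at 0.504% to 0.591% in Tet2 WT and 0.367% to 0.798% in Tet2 KO. Cebpb was lower still, at 0.0871% to 0.387% and 0.0618% to 0.294%. T-cell genes had 6 of 7 (1.51%), with Bcl11b, a T-lineage factor, at 3.66% to 4.82% and 3.24% to 5.04%.

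Not every gene of another lineage was partly methylated, and not every germline gene was methylated. Runx3, a factor of cytotoxic T cells that is also active in B cells, was at 0.115% to 0.201% in Tet2 WT and 0.0844% to 0.228% in Tet2 KO. Of 5 dense tiles at germline genes 2 were members, at Tdrd5 (2.66% to 4.07% in Tet2 WT) and Dazl (0.524% to 2.29%), while Mael lay at 86.7% to 89.8% and Ddx4 at 93.0% to 97.5% over all libraries. Imprinted genes, which carry methylation on 1 parental copy, had 8 of 12 as members, with Gnas at 0.0806% to 0.156% in Tet2 WT, and the others included Igf2r at 25.5% to 39.8% and Cdkn1c at 23.8% to 32.2% over all libraries. No member of the 11 lists was called in either direction in the fit over all tiles, which is near the shares of all members called higher (0.0405%) and lower (0%) and of all tiles fitted (0.531% and 0.00271%), so nothing about the lists is read from it.

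**Figure D2:**
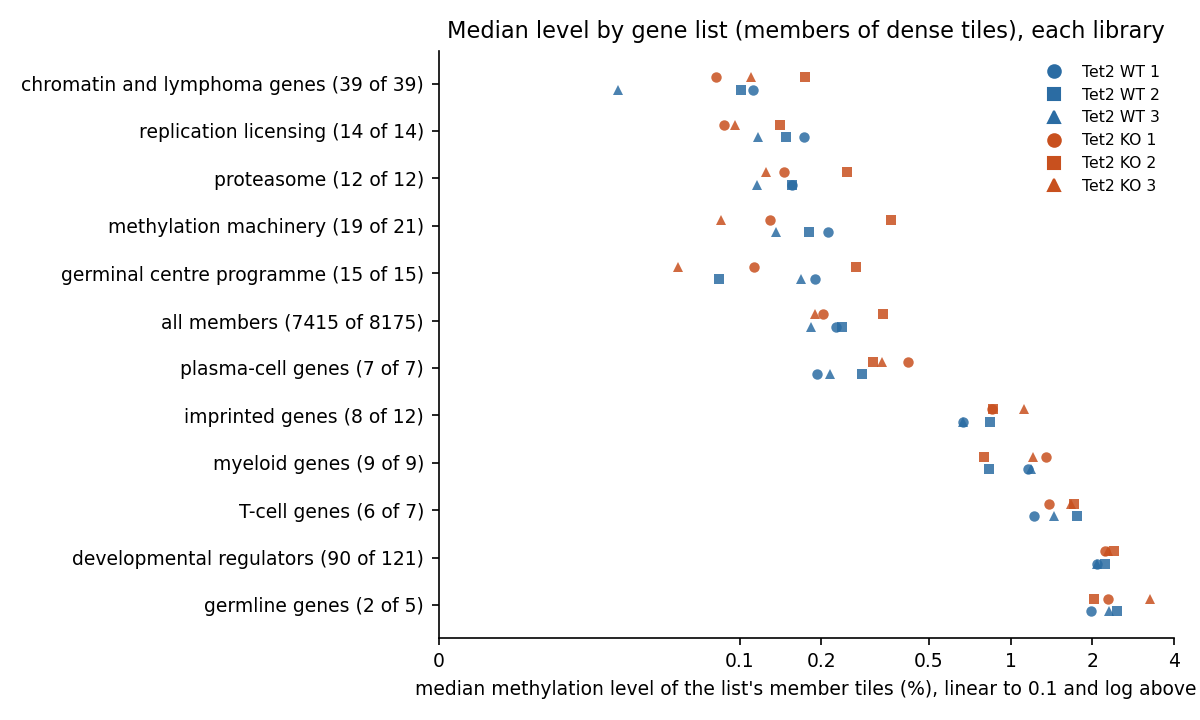
Median methylation level (x axis, %, linear to 0.1 and logarithmic above) of the member tiles of each gene list, 1 point per library, Tet2 WT in blue and Tet2 KO in orange, with the number of members of the list's dense tiles in parentheses. Developmental regulators stand at 2.08% to 2.41% in all 6 libraries, while replication, proteasome, germinal centre and chromatin genes stay under 0.3%.

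The promoters of members were rich in CpG and in a few short motifs. Among 20063 RefSeq promoters (250 bases before to 50 after a start), the 4836 in members had a median of 29 CpGs, against 14 for all promoters. Each motif was searched on both strands. The GC box GGGCGG, bound by SP/KLF factors, was in 81.1% of member promoters and 47.0% of all, whereas TATAAA was in 4.20% and 12.7%. The NRF1 motif, GCGC and TGCGC separated by any 1 base, was in 12.2% of member promoters and 6.54% of all, and the ETS motif CCGGAAGT, which overlaps the MspI site, in 8.66% and 5.28%. The 226 promoters in other dense tiles had a median of 25 CpGs. In them the GC box was in 71.2%, TATAAA in 2.21%, the NRF1 motif in 3.54% and the ETS motif in 3.10%. The low share of TATAAA was thus not particular to members. The 7073 promoters in tiles of 3 to 39 positions had a median of 17 CpGs. In them the GC box was in 58.7%, TATAAA in 7.42%, the NRF1 motif in 8.68% and the ETS motif in 7.92%. The share of the ETS motif was thus close to that in members. Within members the motifs differed by level. The NRF1 motif was in 15.2% of the 1983 promoters in members at or below the mitochondrial level in all libraries and 3.95% of the 1037 in members above it, and the ETS motif in 9.78% and 2.80%, with similar median CpG counts of 31 and 29. The GC box differed little, at 82.7% and 79.7%. These are matches of letters and not measured binding.

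Methylation rose on both sides of the empty centre, and the Tet2 KO libraries lay higher on the slopes. Around the 4836 starts in members, the level was lowest from -250 to 0 bp, at 0.395% in Tet2 WT and 0.446% in Tet2 KO, and this was the only one of 24 bins of 250 bp in which the groups overlapped. It reached 31.0% and 32.5% from -3000 to -2750 bp and 49.5% and 52.2% from 2750 to 3000 bp. The difference between groups grew from 0.0503 percentage points at the centre to 2.75 points in the last bin downstream. The bins share libraries, and Tet2 WT replicate 1 was the lowest library on the slopes. Each bin pools many positions, and the median difference of all 110903 tiles fitted was also upward, at 0.428 points. Each start lies in a tile that Tet2 WT levels chose, so the differences in the bins near the start are descriptions.

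Positions 1 to 1000 bp outside runs of members, outside every dense tile, were not used to choose the members and so test the surroundings. Over 81527 such positions the mean level was 5.74%, 6.17% and 6.14% in Tet2 WT (6.01% ± 0.241, SD, n = 3) and 6.50%, 6.52% and 6.41% in Tet2 KO (6.47% ± 0.0607). All 3 Tet2 KO libraries were above all 3 Tet2 WT libraries, by 0.461 points in the mean (exact two-sided permutation test, p = 0.1, the smallest that 3 against 3 allows). The level rose with distance, from 1.70% in Tet2 WT and 1.85% in Tet2 KO within 100 bp to 27.3% and 28.6% at 901 to 1000 bp, and the groups did not overlap in any of the 10 bins of 100 bp. The difference was 0.157 points in the nearest bin and at most 1.62 points, at 701 to 800 bp. Without Tet2 WT replicate 1 it was 0.322 points over all these positions. These bins also pool positions of the same libraries. The median difference of all 110903 tiles fitted was 0.428 points, so a higher Tet2 KO level was not particular to the surroundings of members.

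**Figure D3:**
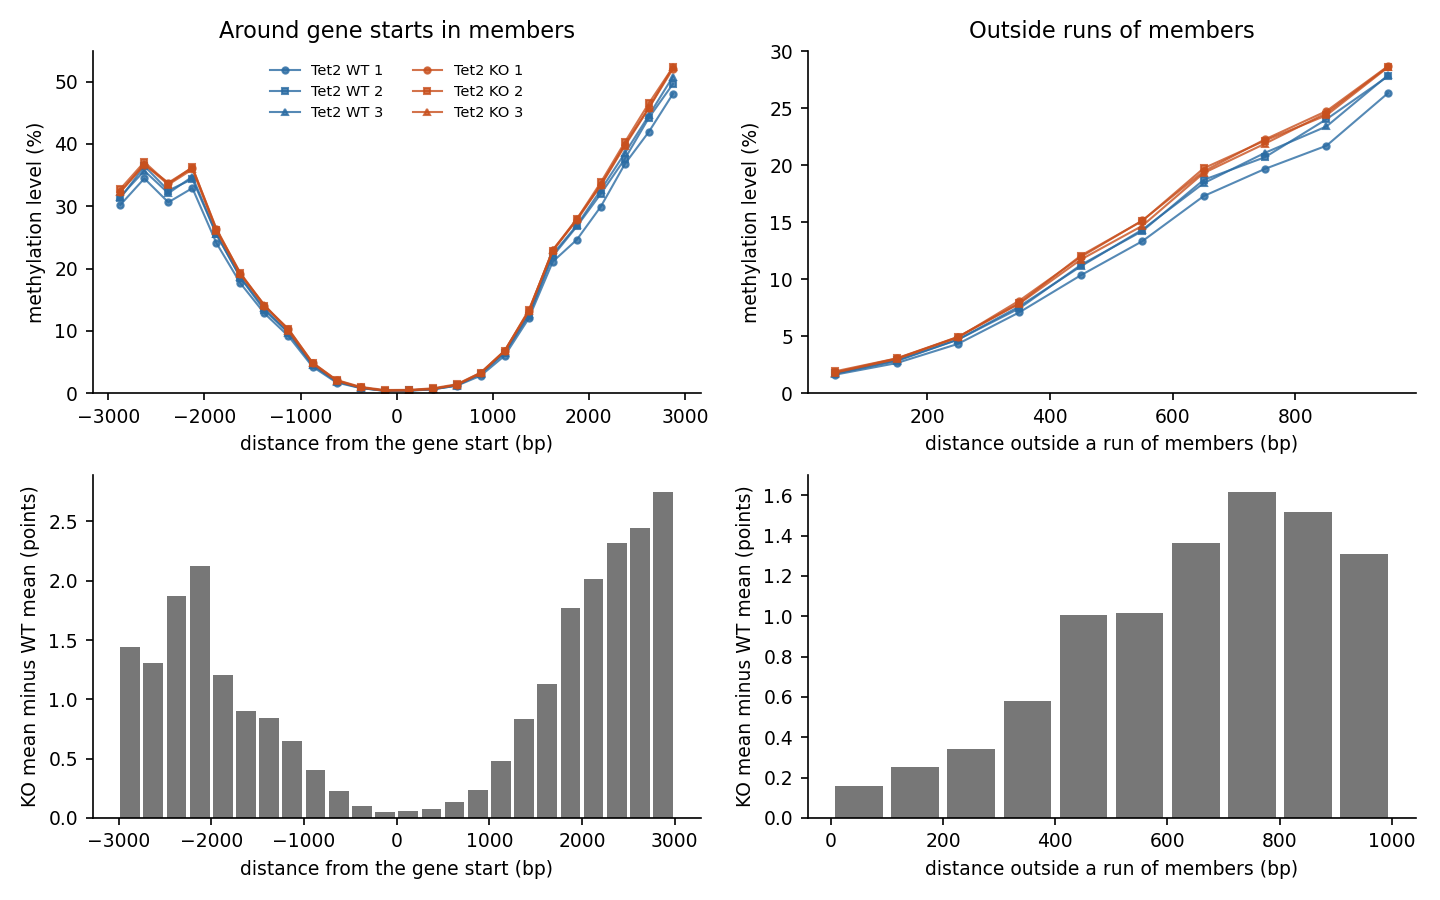
Top, mean methylation level (y axis, %) by distance from gene starts in members (left, bp, upstream negative) and by distance outside runs of members (right, bp), 1 line per library, Tet2 WT in blue and Tet2 KO in orange; bottom, the difference between the group means in percentage points. The difference is 0.0503 points just upstream of starts and reaches 2.75 points at the downstream end and 1.62 points outside runs.

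Inside members the difference between groups was small. The mean level was 0.735% ± 0.0320 in Tet2 WT and 0.828% ± 0.0386 in Tet2 KO (SD, n = 3), 0.0929 points or 1.13 times higher. Since Tet2 WT levels chose the members, this is a description with no test, and the same value was taken with members chosen by the Tet2 KO mean, which gave 0.0761 points, and by the mean of all 6 libraries, which gave 0.0858 points. After the mitochondrial level of each library was subtracted the difference was 0.0919 points. The groups, which did not overlap before, then overlapped, with Tet2 KO replicate 2 below Tet2 WT replicates 1 and 3. The median member differed by 0.0394 points, against 0.428 points for the median of all 110903 tiles fitted, and 4737 members (63.9%) had a higher Tet2 KO mean, against 62.5% of all those tiles. In 151 members the Tet2 KO mean was at least 1 point higher and in 18 at least 1 point lower, and 89 had a Tet2 KO mean of 5% or more.

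Dense and sparse tiles with little methylation could be compared only with care for how they were chosen. Tiles of 3 to 39 positions with a Tet2 WT mean under 5% numbered 15045 and averaged 1.11% ± 0.0664 in Tet2 WT and 1.48% ± 0.0694 in Tet2 KO, a difference of 0.375 points. The difference in members minus that in sparse tiles was -0.282 points, given with no test because Tet2 WT levels chose both kinds. With both kinds of tile chosen by the Tet2 KO mean this contrast was -0.0148 points, and by the mean of all 6 libraries -0.110 points, so the size of this contrast followed the choice of tiles. The other dense tiles averaged 20.3% ± 0.401 in Tet2 WT and 20.8% ± 0.351 in Tet2 KO and overlapped. The contrast of members with them was -0.487 points and also overlapped between groups. Members took 36.7%, 37.9% and 39.9% of the coverage summed over autosomal positions in Tet2 WT and 38.1%, 38.2% and 36.6% in Tet2 KO. There was no difference beyond the spread (exact permutation test, p = 0.8).

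A quasi-binomial model of methylated and unmethylated reads was fitted to all 110903 autosomal tiles with 3 or more positions, and a tile was called at an adjusted p under 0.05. It called 3 members higher in Tet2 KO (0.0405% of members), against 589 of all tiles (0.531%), and 0 members lower, against 3 of all tiles (0.00271%). At an unadjusted p under 0.05, 580 members were higher (7.82%, against 8.97% of all tiles) and 104 lower (1.40%, against 1.47%). These counts moved when 1 library was left out: 353 were higher without Tet2 KO replicate 2 and 222 were lower without Tet2 WT replicate 3. The groups did not overlap, with Tet2 KO higher, in 699 members (9.43%, against 11.5% of all tiles) and, with Tet2 KO lower, in 185 (2.49%, against 3.43%). In the counts over all 6 libraries the share of members lay below that of all tiles, in both directions; the difference in shares was not tested. The calls depended on the model: limma on log2 ratios, a fit without moderated dispersion and a fit with the replicate number as a block each called 0 members in either direction, with 449, 362 and 761 members higher and 109, 89 and 242 lower at an unadjusted p under 0.05.

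**Figure D4:**
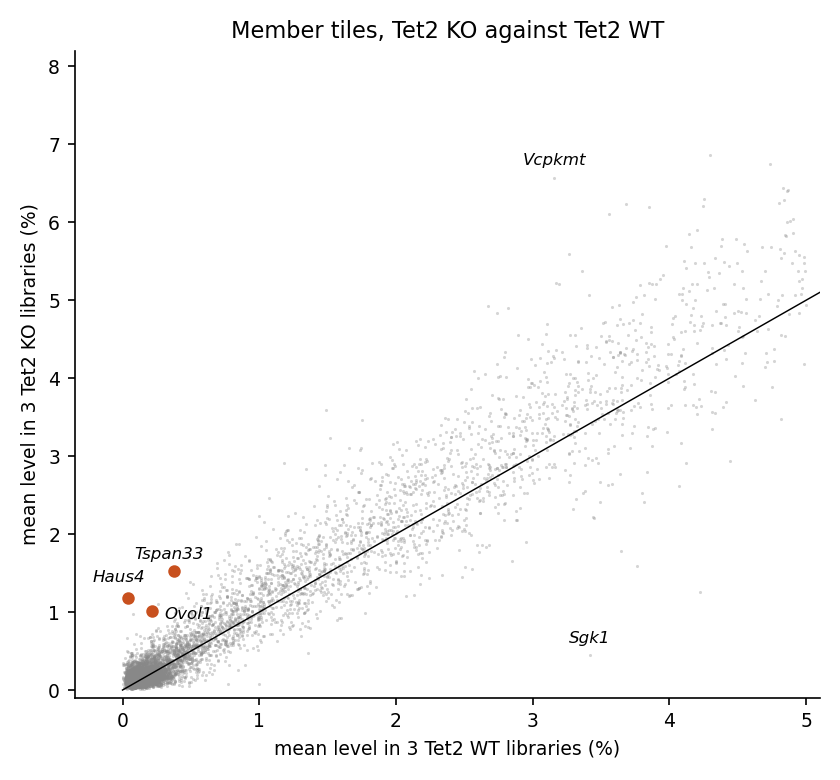
Mean level of each of the 7415 member tiles in the 3 Tet2 KO libraries (y axis, %) against the 3 Tet2 WT libraries (x axis, %), with equal values on the line and the 3 called tiles in orange. The called tiles lie near the left edge, at Tet2 WT means of 0.0376% to 0.374% and Tet2 KO means of 1.02% to 1.52%, and the x axis ends at 5% because Tet2 WT levels chose the members.

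The 3 called tiles went from nearly empty to about 1% in the mean of the Tet2 KO libraries. The tile at the start of Tspan33, which encodes a tetraspanin expressed on activated B cells (chr6:29694001-29695000, 64 positions), was at 0.384%, 0.419% and 0.319% in Tet2 WT and 1.66%, 1.31% and 1.60% in Tet2 KO. It rose by 1.15 points (adjusted p = 0.00913, quasi-binomial fit with limma moderation). Of its positions, 56 to 58 were at 0 in each Tet2 WT library and 28 to 39 in each Tet2 KO library, and 40 had a higher Tet2 KO mean against 8 with a lower one. Coverage summed over the tile was also higher in Tet2 KO (13446, 11941 and 11116) than in Tet2 WT (6505, 9538 and 8786). Deeper coverage makes a position at 0 less likely, so the counts of positions at 0 cannot be read apart from depth. The Ovol1 tile (chr19:5560001-5561000, 116 positions), at a zinc-finger factor of epithelial cells, was at 0.235%, 0.202% and 0.213% in Tet2 WT and 0.749%, 1.39% and 0.918% in Tet2 KO, a rise of 0.803 points (adjusted p = 0.00944, same fit). At most 3 of its positions were over 10% in any library. Both calls held when any 1 library was left out.

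The tile at Haus4, a subunit of the augmin complex of the mitotic spindle (chr14:54554001-54555000, 42 positions), was at 0.0636%, 0.0493% and 0% in Tet2 WT and 2.04%, 0.370% and 1.12% in Tet2 KO. It rose by 1.14 points (adjusted p = 0.0421, quasi-binomial fit with limma moderation), and its Tet2 KO libraries were far apart. In Tet2 KO replicates 1, 2 and 3, 12, 1 and 4 of its positions were over 3%, and 23, 38 and 37 were at 0. The raised positions differed between libraries. Replicates 1 and 3 were at 5.07% and 0% at chr14:54554161, and at 0% and 6.90% at chr14:54554253. The call was lost when Tet2 KO replicate 1 (0.705 points), Tet2 KO replicate 3 or any Tet2 WT library was left out. The 250 bases before the starts of Tspan33 (chr6:29693964-29694213, plus strand) and Haus4 (chr14:54554362-54554611, minus strand) are printed because they lead into or lie in called tiles, with CpGs in capitals.
Tspan33: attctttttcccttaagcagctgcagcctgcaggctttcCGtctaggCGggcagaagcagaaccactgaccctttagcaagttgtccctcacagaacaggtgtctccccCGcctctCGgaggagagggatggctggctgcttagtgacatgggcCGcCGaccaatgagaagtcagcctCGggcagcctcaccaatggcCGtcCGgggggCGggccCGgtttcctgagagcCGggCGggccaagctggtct
Haus4: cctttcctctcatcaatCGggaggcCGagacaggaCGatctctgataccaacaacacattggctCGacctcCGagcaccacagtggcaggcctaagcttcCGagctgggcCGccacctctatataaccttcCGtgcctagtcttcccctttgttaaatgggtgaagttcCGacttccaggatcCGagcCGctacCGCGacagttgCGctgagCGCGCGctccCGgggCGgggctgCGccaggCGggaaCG

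The Tspan33 stretch holds 13 CpGs and the Haus4 stretch 22. Only 2 and 9 positions were covered in them. The 2 in the Tspan33 stretch were at 0% in each Tet2 WT library (167 to 490 reads) and at 0.928%, 2.74% and 0.162% in the Tet2 KO libraries, and the 9 in the Haus4 stretch were at 0% in all 6 libraries, so the methylated reads of the Haus4 tile lay outside the printed bases.

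Larger differences in points occurred in members with more methylation, and none of these passed the test. The members with the largest non-overlapping differences upward were at Adcy2, an adenylate cyclase (4.57%, 3.63% and 4.69% in Tet2 WT against 5.64%, 5.74% and 9.21% in Tet2 KO), Cyp26c1, a retinoic acid hydroxylase (3.90%, 3.40% and 3.74% against 5.67%, 6.00% and 7.03%), Map4k3, Dlx2 and a tile 16079 bp from Socs3. Their adjusted p-values were 0.0625 to 0.253 (quasi-binomial fit with limma moderation). Downward, Tm9sf3 was at 4.37%, 3.65% and 3.28% in Tet2 WT and 1.26%, 2.16% and 1.37% in Tet2 KO (adjusted p = 0.107, same fit), and Ocln, which encodes the tight-junction protein occludin, Sfrp2, a secreted inhibitor of Wnt signalling, and the ephrin receptor gene Ephb2 had adjusted p-values of 0.176 to 0.306. Next to the start of Cdkn2a, a tumour suppressor locus, the tile at chr4:89295001-89296000 was at 0.208%, 0.270% and 0.253% in Tet2 WT and 0.545%, 0.893% and 0.829% in Tet2 KO, without overlap but with an adjusted p of 0.0963. The tile that holds the start was at 1.02% to 1.42% and 1.12% to 1.80%.

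**Figure D5:**
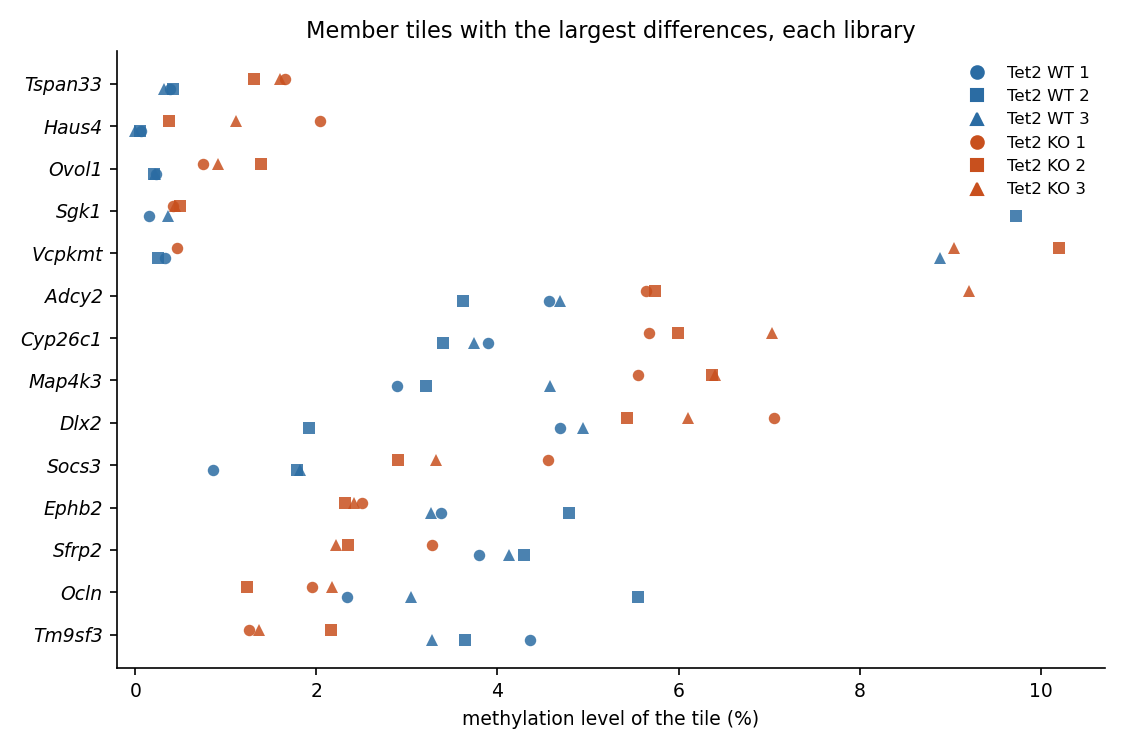
Methylation level (x axis, %) of member tiles named by their gene (y axis), 1 point per library, Tet2 WT in blue and Tet2 KO in orange. Tspan33, Haus4 and Ovol1 were called; at Sgk1 only Tet2 WT replicate 2 is high (9.73%), and at Vcpkmt Tet2 WT replicate 3 and Tet2 KO replicates 2 and 3 are high (8.89% to 10.2%).

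In 2 members at least 1 library stood 5 or more points away from the median of the 6, Tet2 WT replicate 2 at Sgk1 and Tet2 KO replicate 2 at Vcpkmt; they were picked after their values were seen. The start tile of Sgk1, a kinase gene recurrently mutated in B-cell lymphoma (chr10:21994001-21995000, 78 positions), was at 0.157%, 9.73% and 0.361% in Tet2 WT and 0.412%, 0.493% and 0.437% in Tet2 KO. Only Tet2 WT replicate 2 was high. In it 32 positions were over 10%, along 751 bp (chr10:21994024-21994774), and the highest was at 28.1%, while no position was over 10% in any other library. The tile's KO minus WT difference of -2.97 points, the most negative of all members, came with overlapping groups and an adjusted p of 0.447 (quasi-binomial fit with limma moderation). The 250 bases before its start (chr10:21994416-21994665, plus strand, 22 CpGs) lie within that stretch and are shown for it, with CpGs in capitals. Over their 16 covered positions Tet2 WT replicate 2 was at 1.71%, so its methylation was concentrated outside these bases, and Tet2 KO replicate 2 was at 1.84%.
Sgk1: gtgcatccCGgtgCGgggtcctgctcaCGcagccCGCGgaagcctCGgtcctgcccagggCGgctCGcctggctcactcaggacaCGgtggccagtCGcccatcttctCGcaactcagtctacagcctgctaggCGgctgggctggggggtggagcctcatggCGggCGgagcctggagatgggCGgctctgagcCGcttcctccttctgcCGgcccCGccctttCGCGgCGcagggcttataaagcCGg

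The other tile lies 17 bp from the start of Vcpkmt, which encodes a lysine methyltransferase of the chaperone VCP (chr12:69582001-69583000, 47 positions). It was at 0.332%, 0.253% and 8.89% in Tet2 WT and 0.466%, 10.2% and 9.04% in Tet2 KO. Its libraries fell into 3 low and 3 high ones that cut across the genotypes. In the high libraries 20 of the 21 positions along 149 bp (chr12:69582819-69582967) were over 10%, with medians of 18.5% to 25%, and none was over 10% in the low ones. The 26 other positions of the tile, 12 bp or more away, stayed at 0.0375% to 0.812% in all libraries. The difference of 3.41 points, the highest of all members, had an adjusted p of 0.697 (quasi-binomial fit with limma moderation).

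At the threshold itself there was no gap. The members just under 5% in Tet2 WT were Prkd1 (4.9997%), Pgbd5 (4.99%) and Cracr2b (4.99%), and the dense tiles just over were Rfx1 (5.01%), Adra1b (5.02%) and Tmem178b (5.02%). In all, 167 members had a Tet2 WT mean of 4% to 5% and 149 dense tiles one of 5% to 6%.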

How the data were processed

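CpG methylation was measured by ERRBS in 3 Tet2 WT and 3 Tet2 KO libraries. The authors deposited, per CpG position and strand, the coverage as read counts and the percent of reads with C and with T, per the file headers; only positions with 10 or more reads are listed. Bismark and the build GRCm38 are named in the submitters' processing notes; for versions and other filters, nothing was given in the sources used here. Methylated counts were recovered as coverage times percent and were whole for 100% of positions. Coverage summed over the listed CpG positions was 174375503 to 203863392 per library, and a read over several CpGs counts once at each.

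Positions listed in all 6 libraries were grouped into 1 kb tiles. Reads per tile were fitted with a 2-group quasi-binomial logistic model, with dispersions moderated by limma 3.58.1 (R 4.3.3, trended on the tile's level), an F test and Benjamini-Hochberg adjustment over all 110903 tiles with 3 or more positions. Single values per library were compared with exact two-sided permutation tests. The script was tested on simulated data. Alternatives were other dispersion priors, limma on log2 ratios, a replicate block, other choices of members, coverage 20 or more, removal of the positions with the highest coverage, other weights and leaving out each library. Gene names and promoter sequences came from RefSeq (GRCm38.p6). Named tiles were those with the largest non-overlapping differences, the most positions, the longest runs, the levels nearest the threshold, the highest single positions and, for each gene list, up to 3 members, plus some fixed genes; Sgk1 and Vcpkmt were added after their values were seen. The members and lists were chosen with earlier results of these data known.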

Additional observations from a re-analysis of the deposited data

How the results depend on the processing

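Differences between Tet2 KO and Tet2 WT in the mean of members, in the positions outside runs and in members against other dense and sparse tiles kept their sign under every alternative run. Their size did not always hold: against sparse tiles it fell from -0.282 to -0.0148 points with tiles chosen by the Tet2 KO mean. Reads outside runs summed per library, chosen after seeing the data, gave 0.411 points. Leaving out 1 library gave 0.0710 to 0.111 points for members, 0.322 to 0.537 outside runs, -0.709 to -0.353 against other dense tiles and -0.299 to -0.252 against sparse tiles. It turned the sign of the share of coverage in members (-1.26 to 0.362 points, positive only without Tet2 WT replicate 3) and of the mitochondrial level (-0.0496 to 0.0553 points). Without the positions of highest coverage, 8 of 19 mitochondrial positions and 107 to 458 reads a library were left, and the mitochondrial difference was -0.106 points, also of turned sign. It rests on Tet2 WT replicate 2 alone, at 0.319% of 313 reads, with every other library at 0%. The mitochondrial reference thus came almost wholly from reads at the positions of highest coverage.

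The 3 members called higher became 0 with unmoderated dispersion, 0 with limma on log2 ratios, 0 with the replicate block, and 0 where group means had to be at least 2 or at least 10 points apart. With dense tiles alone fitted, 2 were called higher and 1 lower. Leaving out 1 library gave 2 to 7 higher and 0 to 5 lower, the most without Tet2 WT replicate 3. The cause was not tested. Deviations of same-numbered libraries correlated little over members, at 0.00122, -0.0109 and 0.0178. Replicate 2 nevertheless had the highest mitochondrial level of its group in both groups (0.416% in Tet2 WT and 0.410% in Tet2 KO). It also had the highest share of member positions over 20% (0.746% and 0.701%). Whether same-numbered libraries were handled together was not tested. With labels swapped only within numbers (replicate block), the smallest possible p is 0.25, and no other call changed. Over all tiles, 589 called higher became 0 with the block, 0 with limma, 0 unmoderated and 267 to 1342 when 1 library was left out. Precision is limited by 3 libraries a group.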
